A study of Homo sapiens with 16 samples.

Results

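The genes of the mitochondrial ribosomal proteins (MRP genes) were followed in Caco-2 cells, a human colorectal carcinoma line used as a model of the intestinal epithelium. Every gene whose name on the array starts with MRPL or MRPS and a number was taken, which gave 77 genes of 30982 gene names and 106 probes of 41000. Each gene is given by its brightest probe, so that 22 genes with more than 1 probe count once. Of these genes, 49 encode proteins of the large subunit and 26 proteins of the small subunit of the mitochondrial ribosome. The remaining pair are MRPL42P5, a pseudogene, and MRPS36, whose product is also named KGD4 and belongs to the oxoglutarate dehydrogenase complex. The genes were taken by name and not by a measured difference, but the family was chosen with earlier results of these data known. All but MRPL42P5 were well above background on all 16 arrays, and MRPL42P5 was so on 7 of 16.

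All cells were undifferentiated Caco-2 cells, on the third day after seeding, in MEM with 1% FCS. They were kept for 6 h in this medium alone (MED-CTL), with 150 µg/ml of the synthetic gliadin peptide p31-43, with gliadin digested by pepsin and trypsin (PT-G), or with a blank digest of pepsin and trypsin that held no substrate (PT). The enzymes had been inactivated by heat, and the concentrations of PT and PT-G are not given in the sources used here. There were 4 arrays per condition, from 4 independent experiments with cells 1 or 2 passages apart, all from a single cell line.

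The mitochondrial ribosome makes the few proteins that mitochondrial DNA encodes, all of them subunits of the respiratory chain and ATP synthase. Its own proteins are encoded in the nucleus, made in the cytosol and imported. Some have counterparts in bacterial ribosomes, and others were gained by mitochondria. Intestinal epithelial cells use mitochondrial respiration for transport and renewal, and Caco-2 cells, like other tumour lines, grow with a mix of glycolysis and respiration.

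The arrays fell into 4 runs, which are the sets of arrays that share a code in the deposited names, with 1 array of each condition. MED-CTL replicate 1 belongs to run 2 and MED-CTL replicate 2 to run 1, and all other replicate numbers equal the run. Runs 1 and 2 were scanned in an earlier period than runs 3 and 4. Median spot intensity lay between 153 and 410 over the arrays, and between 27660 and 33947 spots were well above background. Of 8 epithelial markers, VIL1, KRT8, KRT18, CDH1, CDH17, CDX2, KRT20 and LGALS4, all were well above background on 16 of 16 arrays, and the leukocyte marker PTPRC was so on none. Probes of CD3E, COL1A1, COL3A1 and PECAM1 were above background on 16 arrays, with log2 intensities of at most 7.35 to 8.99. The epithelial markers KRT20 (7.58 to 8.68) and LGALS4 (6.64 to 7.96) lay at a similar level, and CDX2 lay between 8.62 and 11.25. VIL1, KRT8, KRT18, CDH1 and CDH17 were at 11.71 or above on all arrays. Of the 13 markers, KRT20 had a nominal p under 0.01, with a log2 difference from MED-CTL of 0.63 under PT-G and 0.50 under PT. The part of cell composition in the results below was not tested, and in bulk RNA fewer cells of a kind and less RNA per cell cannot be told apart.

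The 3 arrays of slide 3 stood apart from the other 13 for many MRP genes. Slide 3 carried the run 3 arrays of MED-CTL, p31-43 and PT-G, whereas PT replicate 3 of the same run lay on slide 5. For 29 of 77 MRP genes the 3 values of slide 3 did not overlap the other 13 values, 23 lying below and 6 above. That is 37.7% of the MRP genes, beside 13.8% of the 30965 genes tested by their brightest probe. These ranges were set side by side after the values had been seen, and no test was made. Of the 30965 genes, 20621 remain when dim probes are left out, whereas all MRP genes but MRPL42P5 were well above background throughout. The share among bright genes alone was not taken.

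MRPS7, a small subunit protein with a bacterial counterpart, had the largest difference of medians between slide 3 and the other arrays among the 29 genes. Its log2 intensity was 15.03 on MED-CTL replicate 3, 14.48 on p31-43 replicate 3 and 14.82 on PT-G replicate 3, and between 13.23 and 13.82 on the other arrays. PT replicate 3, at 13.41, lay with the other arrays and not with its run. MRPL34, a small protein of the large subunit, went the other way, with 13.08, 13.74 and 13.31 on slide 3 against 14.30 to 14.67 elsewhere. MRPS36 (13.06 to 13.62 on slide 3, 13.91 to 14.58 elsewhere) and MRPL17 (11.81 to 12.19 against 12.55 to 13.39) were low on slide 3 in the same way. So were MRPS21 (11.07 to 11.39 against 11.99 to 12.56) and MRPL4 (10.93 to 11.19 against 11.57 to 12.08). With MRPS7, the genes above were MRPL42, MRPS35, MRPS27, MRPL44 and MRPL51. MRPL12, the stalk protein that also binds the mitochondrial RNA polymerase, was at 11.60 on MED-CTL replicate 3 and 11.62 on PT-G replicate 3, but at 13.11 on p31-43 replicate 3. Its other measured arrays lay between 12.41 and 13.74. Slide 3 held no PT array, so within run 3 a difference between PT and another condition cannot be told apart from a difference between slides.

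**Figure D1:**
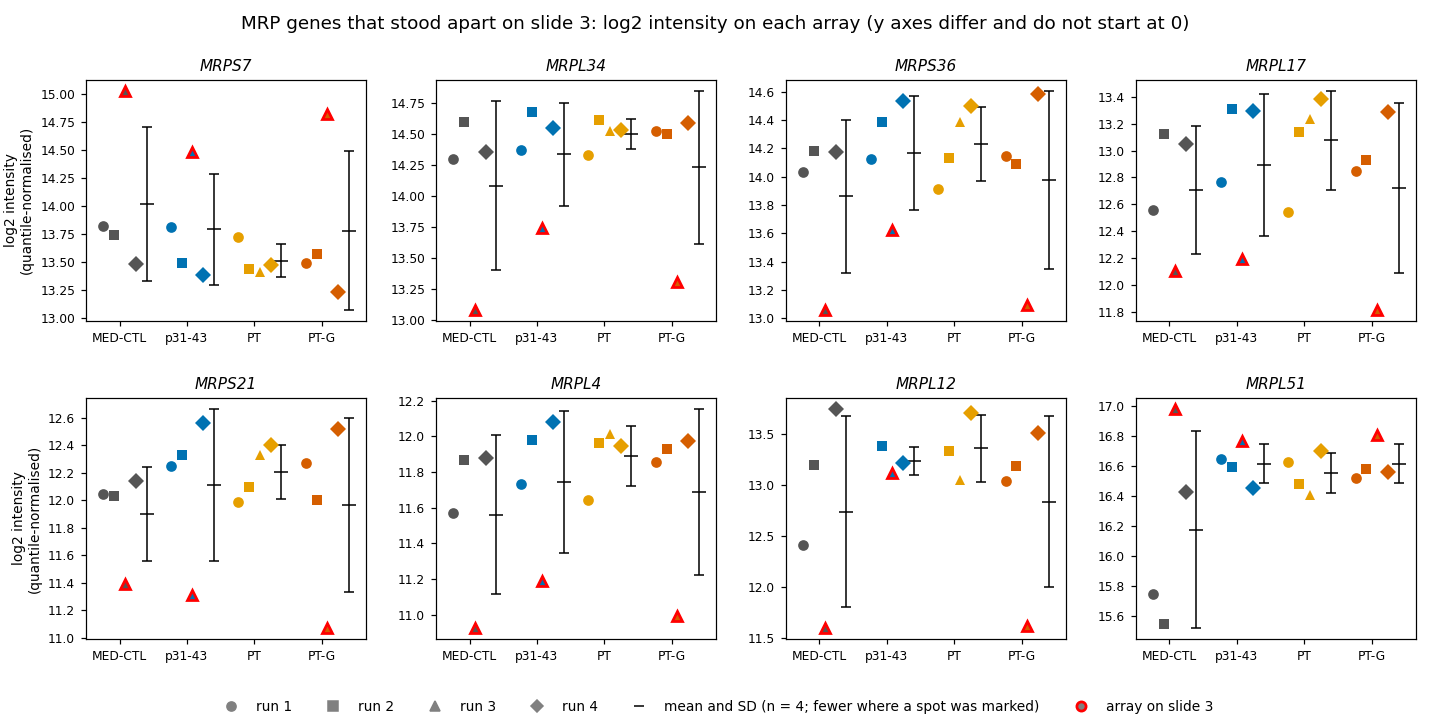
Log2 intensity of the 6 MRP genes with the largest difference of medians between slide 3 and the other arrays among those whose ranges did not overlap, and of MRPL12 and MRPL51, on each array by condition; symbols give the run, red outlines mark the arrays of slide 3, and bars give mean and SD. For MRPS7 the 3 outlined arrays lie between 14.48 and 15.03 and all others at 13.82 or below.

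The median SD within a condition was 0.213 on the log2 scale for the MRP genes and 0.220 for all genes by their brightest probe. Without slide 3 these medians were 0.158 and 0.178. The widest members were MRPL12 with an SD of 0.70, MRPS7 with 0.56 and MRPL54 with 0.55, and the narrowest were MRPL16 and MRPS31, with 0.09 and 0.10. Most differences under treatment were smaller than this spread. The median absolute log2 difference from MED-CTL over the MRP genes was 0.12 for p31-43, 0.14 for PT and 0.10 for PT-G, and over all genes by their brightest probe 0.08, 0.12 and 0.10.

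A gene was called when limma gave a nominal p under 0.01, the threshold of the study, in 1 model of all 16 arrays, and adjusted p-values are Benjamini-Hochberg values over all 40982 probes tested. Between PT-G and MED-CTL, 4 of 77 MRP genes were called and all 4 were lower, beside 3.67% of all genes called in either direction and 1.67% called lower. Between PT and MED-CTL, 2 of 77 were called, both lower, beside 3.85% in either direction and 1.99% lower. Between p31-43 and MED-CTL no MRP gene was called, beside 0.413%, and 2 had an unadjusted p under 0.05, beside 2.27% of all genes. Between PT-G and PT none was called either, beside 0.0904%, and none had an unadjusted p under 0.05, beside 0.762%. Against p31-43 in place of medium, PT-G had 4 calls, all lower (background 3.87%, of which lower 1.81%), and PT had 5, all lower (3.35%, of which lower 1.79%). In either direction the MRP shares, 5.19% for PT-G and 2.6% for PT against MED-CTL, were near the background. Among lower calls alone they were above it, but they rest on 2 to 5 genes in each comparison and were not tested as a list. In this limma model, which has no block for the run, no MRP gene reached an adjusted p under 0.05 in any of the 6 comparisons. Of all genes, 1.03% did for PT-G and 0.901% for PT against MED-CTL, and 1.27% and 0.849% against p31-43. The calls also depended on the scaling. Median scaling gave 0 called MRP genes for PT-G and 0 for PT against MED-CTL, beside 2.69% and 2.86% of all genes. So did the processed signal set relative to the 75th percentile of each array, beside 2.67% and 2.90%. PT and PT-G share the same MED-CTL and p31-43 arrays, so their calls do not count as independent of each other.

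**Figure D2:**
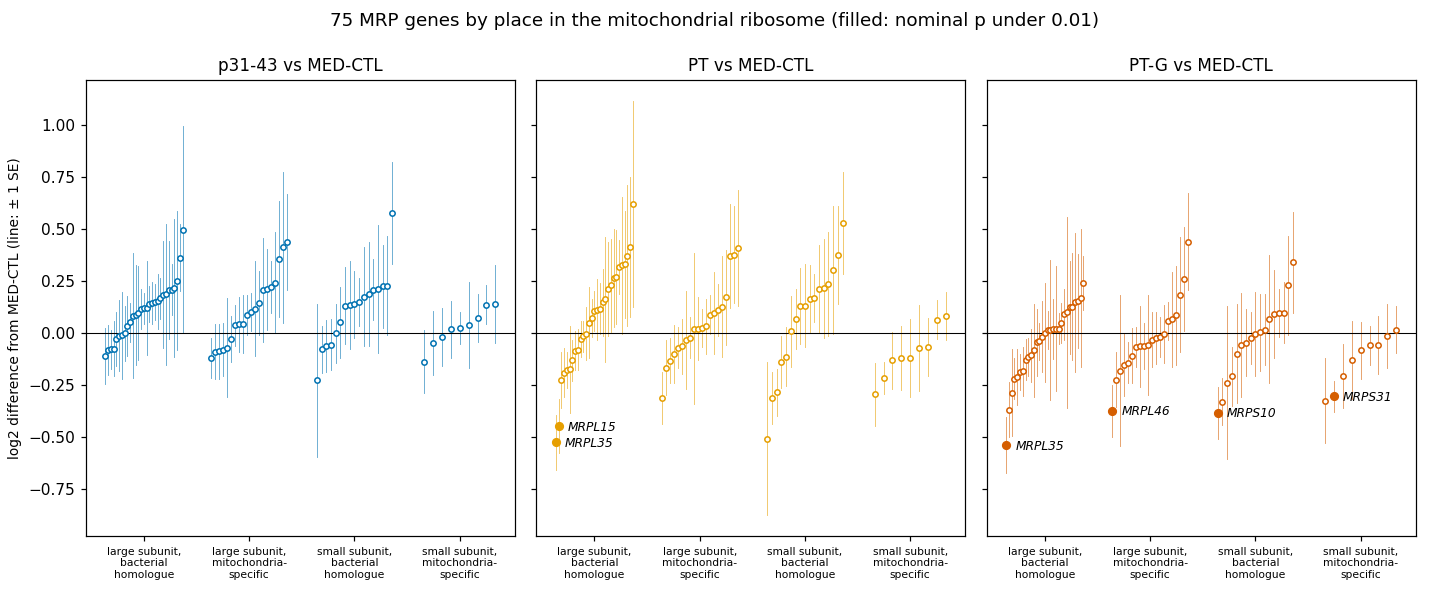
Log2 difference from MED-CTL (vertical axis, lines give 1 SE) of the 75 MRP genes of the ribosome under p31-43, PT and PT-G, ordered by size within their place in the ribosome; filled points have a nominal p under 0.01. The called genes are MRPL15 and MRPL35 under PT and MRPL35, MRPL46, MRPS10 and MRPS31 under PT-G, all below 0.

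The 7 called genes were spread over the ribosome. MRPL9, MRPL15, MRPL27 and MRPL35 are large subunit proteins with bacterial counterparts, and MRPL46 is a large subunit protein that bacteria lack. MRPS10 is a small subunit protein with a bacterial counterpart, and MRPS31 a small subunit protein gained by mitochondria. By place, PT-G against MED-CTL had 1 call among 29 large subunit proteins with a bacterial counterpart, 1 among 20 without, 1 among 17 small subunit proteins with a counterpart and 1 among 9 without. The 2 calls of PT were both among the 29.

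The promoters of 5 of these genes are shown because each was called lower in at least 1 comparison, though not all in the same one. MRPL15 and MRPL35 were called lower too, but no promoter was given for them. They are RefSeq sequences of build GRCh38.p14, from 250 bases before to 50 after the start of the gene, 5′ to 3′ on the gene's strand. Capitals mark the matches to 6 motifs that were searched on both strands. These are an NRF1 core (GCATGCGC), an ETS core (CCGGAAG) as bound by GABPA, a YY1 core (ATGGCGG), an E-box (CACGTG), a GC box (GGGCGG) and an EGR core (GCGTGGGCG). The GC box and the EGR core can share bases.
MRPS31, chr13:40771141-40771440, minus strand: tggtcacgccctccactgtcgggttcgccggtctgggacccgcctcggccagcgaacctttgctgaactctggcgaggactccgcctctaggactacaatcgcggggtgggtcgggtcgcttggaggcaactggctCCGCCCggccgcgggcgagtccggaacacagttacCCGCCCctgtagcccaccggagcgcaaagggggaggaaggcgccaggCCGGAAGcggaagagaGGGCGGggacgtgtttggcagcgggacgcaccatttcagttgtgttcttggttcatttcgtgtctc
MRPS10, chr6:42217812-42218111, minus strand: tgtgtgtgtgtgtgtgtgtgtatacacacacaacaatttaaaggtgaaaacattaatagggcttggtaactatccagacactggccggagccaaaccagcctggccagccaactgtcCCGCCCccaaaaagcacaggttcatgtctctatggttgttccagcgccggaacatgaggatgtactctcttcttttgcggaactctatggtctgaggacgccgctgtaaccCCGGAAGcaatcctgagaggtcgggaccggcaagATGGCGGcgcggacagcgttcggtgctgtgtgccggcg
MRPL27, chr17:50373135-50373434, minus strand: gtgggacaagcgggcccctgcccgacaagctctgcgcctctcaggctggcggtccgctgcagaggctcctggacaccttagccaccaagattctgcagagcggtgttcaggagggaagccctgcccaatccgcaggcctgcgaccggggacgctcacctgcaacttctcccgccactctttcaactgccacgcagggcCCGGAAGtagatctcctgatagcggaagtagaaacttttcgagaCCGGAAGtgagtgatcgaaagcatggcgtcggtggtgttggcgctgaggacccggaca
MRPL9, chr1:151763447-151763746, minus strand: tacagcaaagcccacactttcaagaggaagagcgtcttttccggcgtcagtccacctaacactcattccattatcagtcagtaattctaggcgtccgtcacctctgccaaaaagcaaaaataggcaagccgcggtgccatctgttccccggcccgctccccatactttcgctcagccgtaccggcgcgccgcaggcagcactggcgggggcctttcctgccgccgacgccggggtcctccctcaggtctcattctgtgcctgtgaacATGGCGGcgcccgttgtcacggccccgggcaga
MRPL46, chr15:88467339-88467638, minus strand: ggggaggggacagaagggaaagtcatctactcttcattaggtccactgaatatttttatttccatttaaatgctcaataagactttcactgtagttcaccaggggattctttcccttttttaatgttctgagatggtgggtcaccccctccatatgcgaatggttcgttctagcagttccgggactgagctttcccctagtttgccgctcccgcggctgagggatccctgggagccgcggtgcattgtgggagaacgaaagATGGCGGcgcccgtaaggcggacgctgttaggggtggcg
MRPL27 holds the ETS core at 52 and 8 bases before the start, MRPS10 at 22 and MRPS31 at 32 bases before it. MRPS10, MRPL9 and MRPL46 hold the YY1 core 13, 18 and 12 bases into the transcript. The NRF1 core, the E-box and the EGR core did not occur in these 5 windows. Over the family a promoter was given for 68 of 77 genes, and 28 of them (41.2%) held the ETS core, against 10.3% of all 35116 promoters of the same length. The YY1 core was in 23 (33.8%, against 5.55%), the GC box in 42 (61.8%, against 45%), the NRF1 core in 6 (8.82%, against 3.05%), the E-box in 7 (10.3%, against 7.26%) and the EGR core in 1 (1.47%, against 0.795%). The median GC content was 60.2% in the MRP promoters and 58.7% in all. A match describes the letters only.

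MRPS31 had the narrowest spread of the called genes. Its log2 intensity was 13.71, 13.70, 13.54 and 13.62 on the 4 MED-CTL arrays, in the order of replicates 1 to 4, and 13.70, 13.68, 13.53 and 13.77 under p31-43. It was 13.50, 13.35, 13.34 and 13.53 under PT, and 13.40, 13.36, 13.18 and 13.41 under PT-G. Every array of either digest lay below every medium and every p31-43 array, the highest PT array (13.53) just under the lowest p31-43 array (13.53). The log2 difference was −0.31 ± 0.08 (SE) between PT-G and MED-CTL (limma, adjusted p = 0.0921) and −0.33 ± 0.08 between PT-G and p31-43 (limma, adjusted p = 0.0538). For PT it was −0.24 ± 0.08 against p31-43 (limma, adjusted p = 0.259) and −0.22 ± 0.08 against MED-CTL, which was not called (limma, adjusted p = 0.312). Within the runs PT-G lay below MED-CTL in 4 of 4, with differences from −0.22 to −0.37.

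MRPL35 had the largest difference among the called genes. Its values were 13.32, 13.35, 13.43 and 12.78 under MED-CTL and 13.31, 13.21, 13.16 and 12.90 under p31-43. They were 12.76, 12.65, 12.59 and 12.78 under PT and 12.84, 12.67, 12.72 and 12.50 under PT-G. MED-CTL replicate 4 stood apart from the other medium arrays and lay among the digest arrays, while all 4 p31-43 arrays lay above both digests. The log2 difference from MED-CTL was −0.54 ± 0.13 (SE) for PT-G (limma, adjusted p = 0.0884) and −0.53 ± 0.13 for PT (limma, adjusted p = 0.100). Without MED-CTL replicate 4 it was −0.69 and −0.67, with an adjusted p of 0.00761 and 0.00894 in limma. Within the runs it lay between −0.28 and −0.72 for PT-G, and for PT it was near 0 in run 4 and between −0.59 and −0.85 in the other runs. Against p31-43 it was −0.46 for PT-G and −0.45 for PT. Without the 3 arrays of slide 3 the difference from MED-CTL was −0.48 for PT-G (limma, adjusted p = 0.250) and −0.46 for PT (limma, adjusted p = 0.229), and neither was called.

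MRPL15 was low under both digests and called for PT. It was at 14.85, 14.86, 15.18 and 14.60 under MED-CTL and at 14.75, 14.71, 15.13 and 14.89 under p31-43. It was at 14.44, 14.26, 14.62 and 14.38 under PT and at 14.37, 14.43, 14.74 and 14.48 under PT-G. The highest value of each condition was that of replicate 3, and MED-CTL replicate 4 overlapped PT. The difference from MED-CTL was −0.45 ± 0.13 (SE) for PT (limma, adjusted p = 0.179) and −0.37 ± 0.13 for PT-G, which was not called (limma, adjusted p = 0.341). In each of the 4 runs both digests lay below medium, with differences from −0.22 to −0.60 for PT and from −0.12 to −0.49 for PT-G. Without slide 3 the gene was called for both, with −0.35 (limma, adjusted p = 0.142 for PT and 0.189 for PT-G).

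MRPS10 was at 13.30, 13.20, 13.74 and 13.12 under MED-CTL and at 12.85, 12.90, 13.20 and 12.87 under PT-G. PT-G replicate 3 overlapped the medium arrays. It lay high together with the run 3 arrays of the other conditions, at 13.43 for p31-43 and 13.19 for PT. The difference between PT-G and MED-CTL was −0.38 ± 0.12 (SE; limma, adjusted p = 0.260), and within the runs it lay between −0.25 and −0.54. PT lay at 12.97, 12.93, 13.19 and 13.01, −0.31 ± 0.12 from MED-CTL and not called (limma, adjusted p = 0.427).

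MRPL46 was at 14.75, 14.44, 14.75 and 14.60 under MED-CTL and at 14.23, 14.36, 14.12 and 14.33 under PT-G, without overlap. The difference was −0.38 ± 0.13 (SE; limma, adjusted p = 0.288). Under PT it was at 13.98, 14.38, 14.37 and 14.58, a wider range that overlapped medium. Without slide 3 the difference for PT-G was −0.29 and not called (limma, adjusted p = 0.541).

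MRPL27 and MRPL9 were called against p31-43 and not against MED-CTL. MRPL27 was at 14.89, 14.79, 14.60 and 14.93 under p31-43, at 14.45, 14.53, 14.53 and 14.51 under PT and at 14.40, 14.51, 14.20 and 14.55 under PT-G. Both digests lay below all 4 p31-43 arrays, with a difference of −0.39 ± 0.10 (SE) for PT-G (limma, adjusted p = 0.0919) and −0.30 ± 0.10 for PT (limma, adjusted p = 0.300). Without slide 3 these were −0.38 and −0.37 (limma, adjusted p = 0.0477 and 0.0427). The medium arrays, at 14.84, 14.57, 14.46 and 14.68, overlapped the other conditions. MRPL9 was at 14.85, 14.66, 14.72 and 14.74 under p31-43, at 14.30, 14.29, 14.58 and 14.53 under PT and at 14.36, 14.28, 14.48 and 14.52 under PT-G. The digests were again below all p31-43 arrays, with a difference of −0.33 ± 0.09 for PT-G (limma, adjusted p = 0.103) and −0.32 ± 0.09 for PT (limma, adjusted p = 0.147). Medium, at 14.69, 14.57, 14.47 and 14.68, overlapped every other condition. Whether p31-43 raised these genes over medium was not shown, with differences of 0.17 ± 0.10 for MRPL27 and 0.14 ± 0.09 for MRPL9 (limma, adjusted p = 1.00 for both).

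**Figure D3:**
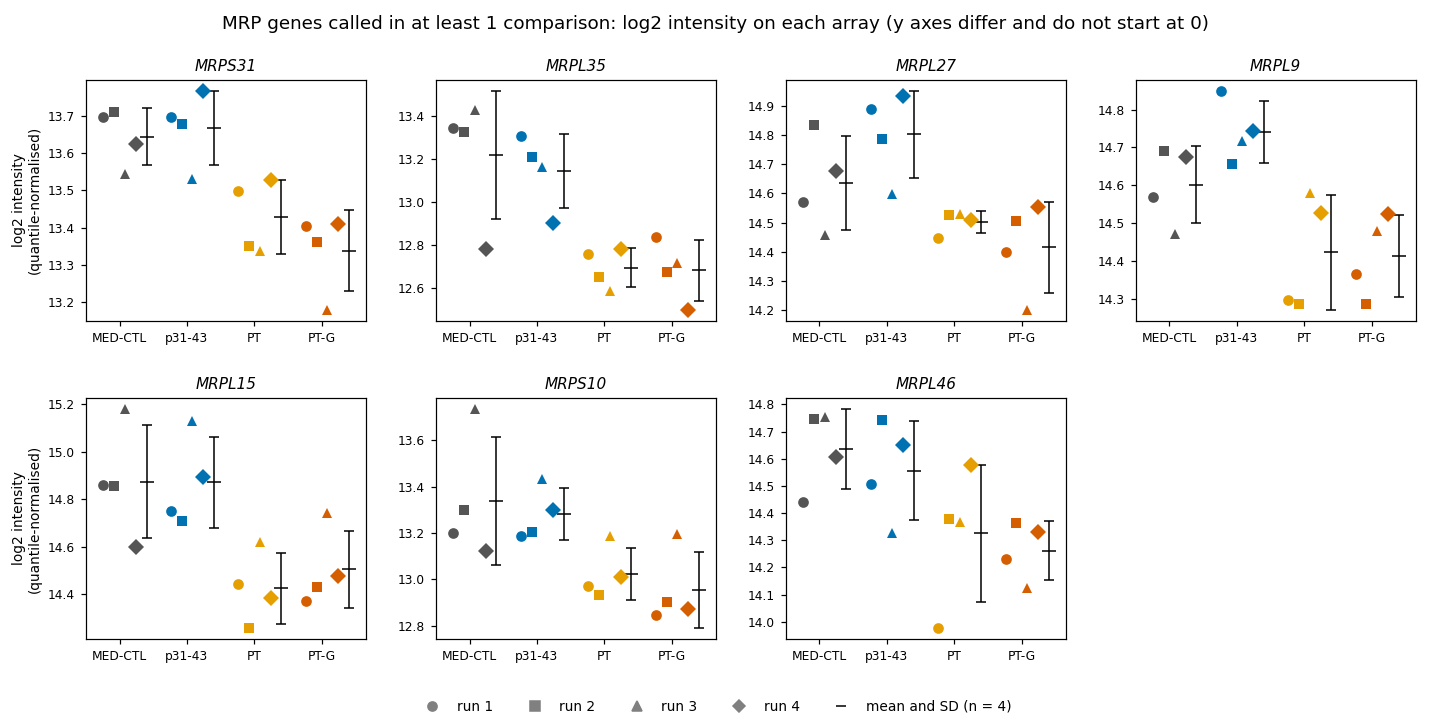
Log2 intensity of the 7 called MRP genes on each array by condition; symbols give the run and bars give mean and SD over 4 arrays. The PT and PT-G arrays of MRPS31 lie at 13.53 or below, and MED-CTL replicate 4 of MRPL35 (run 4, 12.78) lies apart from the other medium arrays.

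Samples of 1 run deviated together in most comparisons, and the run as a block lowered the error. With it, 7 MRP genes were called between PT-G and MED-CTL, all lower, beside 9.4% of all genes. An adjusted p under 0.05 was reached by 4 of the 77 MRP genes, beside 5.93% of all genes. The 3 added genes were MRPL15 (−0.37, limma with the run as a block, adjusted p = 0.0144), MRPS18B (−0.33) and MRPS18A (−0.23). For PT, 7 were called, beside 10.4%, and 4 had an adjusted p under 0.05, beside 6.72% of all genes. The called genes that were lower were MRPL15, MRPL35, MRPS10, MRPS31 and MRPL46. Called higher were MRPL14 (0.32, limma with the run as a block, adjusted p = 0.0527) and MRPS16 (0.53, adjusted p = 0.0915 in the same fit). For p31-43, 1 was called, MRPS16, which was higher (0.58, limma with the run as a block, adjusted p = 0.668), beside 1.45%. Against p31-43, PT-G had 9 lower calls, beside 9.72%, and PT 7, beside 8.56%. In the same fit 7 MRP genes for PT-G and 5 for PT had an adjusted p under 0.05, beside 6.48% and 5.13% of all genes. Between PT-G and PT the count stayed at 0, with 0 of 77 called, beside 0.310% of all genes.

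**Figure D4:**
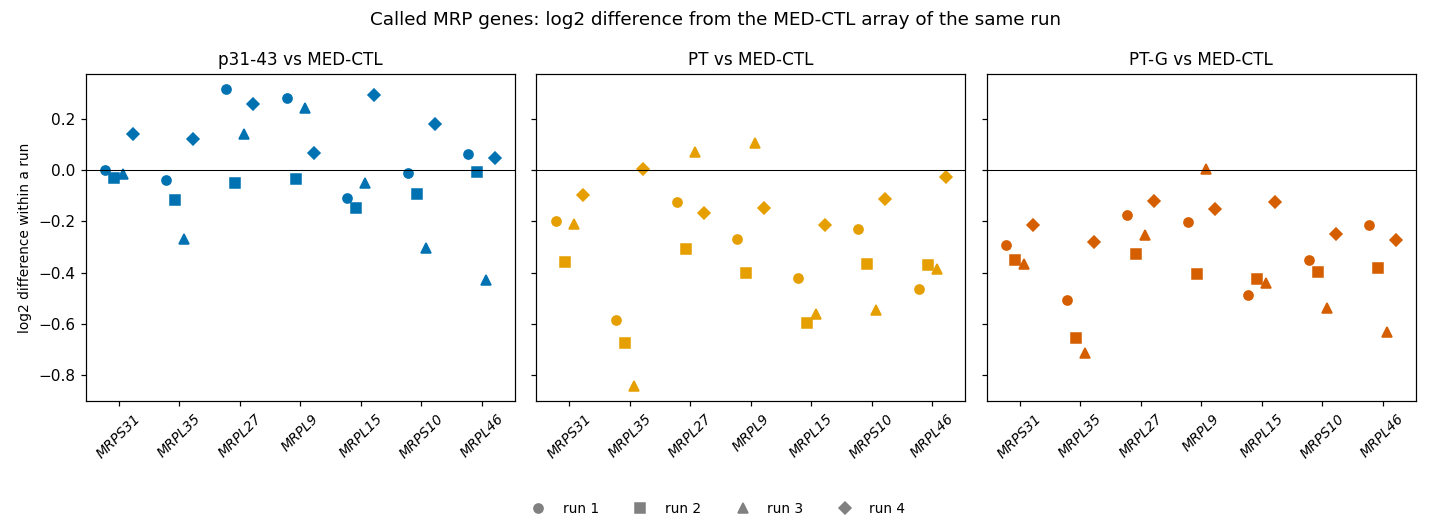
Log2 difference from the MED-CTL array of the same run for the 7 called MRP genes under p31-43, PT and PT-G, with symbols for the 4 runs. Under PT-G all 4 runs lie below 0 for 6 of the genes, MRPL9 being near 0 in run 3, whereas the p31-43 points lie on both sides of 0.

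The calls of genes with several probes rested on the brightest one. MRPL35 had 2 other probes, whose difference from MED-CTL was −0.13 ± 0.22 (SE) and −0.06 ± 0.26 under PT-G and 0.15 ± 0.22 and 0.16 ± 0.26 under PT. The other probes of MRPS10 gave −0.19 ± 0.23 and 0.01 ± 0.33 under PT-G, and the other probe of MRPL46 gave −0.21 ± 0.60. Under PT the other probes of all 3 genes were on the opposite side of 0 to the brightest. None of these other probes was called, and their errors were larger than that of the brightest probe. MRPL9, MRPL15, MRPL27 and MRPS31 have 1 probe each. With the mean of all probes of a gene, 1 MRP gene was called for PT-G and 1 for PT against MED-CTL, beside 3.66% and 3.85%.

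**Figure D5:**
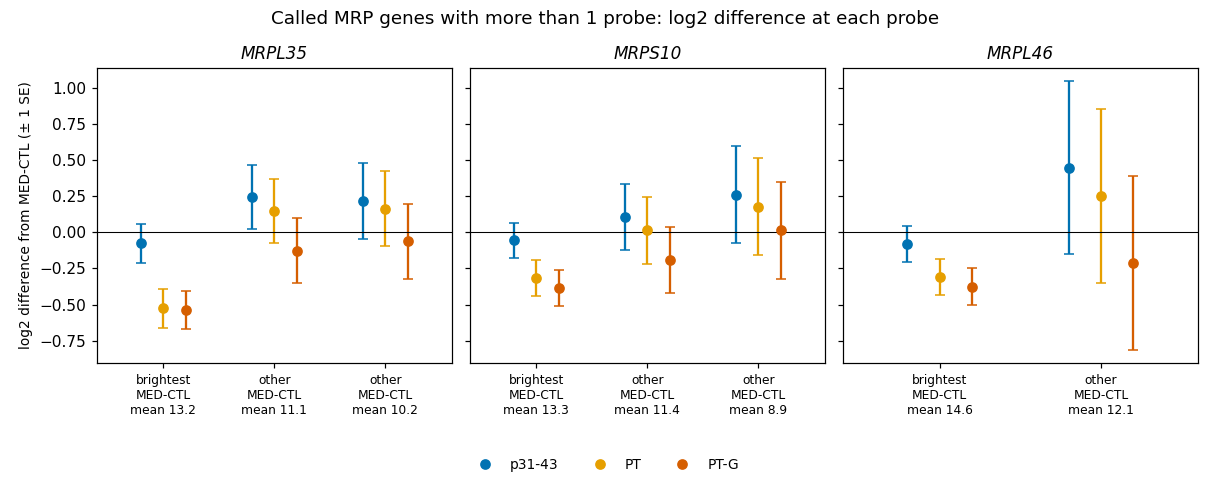
Log2 difference from MED-CTL (± 1 SE) at each probe of MRPL35, MRPS10 and MRPL46 under p31-43, PT and PT-G, probes ordered by their MED-CTL mean. The brightest probe of MRPL35 lies near −0.5 under both digests, and the other 2 lie within 1 SE of 0 under PT-G and PT.

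The members with the largest positive differences had wide errors and were not called. MRPL51, a large subunit protein without a bacterial counterpart, was at 15.55, 15.75, 16.98 and 16.43 under MED-CTL and between 16.40 and 16.80 on the other 12 arrays. Its difference from MED-CTL was 0.44 ± 0.23 (SE) for PT-G, 0.38 ± 0.23 for PT and 0.44 ± 0.23 for p31-43. Without slide 3 these were 0.64, 0.64 and 0.66, each with a nominal p under 0.01 (limma, adjusted p = 0.156, 0.116 and 1.00), and the medium arrays of runs 1 and 2 were the low ones. MRPS16, a small subunit protein in which mutations cause a mitochondrial disease, was at 12.60, 12.45, 12.77 and 13.47 under MED-CTL and between 13.02 and 13.67 under p31-43. Its difference was 0.58 ± 0.25 for p31-43, 0.53 ± 0.25 for PT and 0.34 ± 0.25 for PT-G. Without MED-CTL replicate 4 it was 0.79 for p31-43 and 0.74 for PT and called for both (limma, adjusted p = 0.921 and 0.164). MRPL12 and MRPL34 were at 0.62 ± 0.50 and 0.41 ± 0.34 under PT, and MRPL52 was at 0.26 ± 0.25 under PT-G. Without slide 3 MRPL12 and MRPL34 were at 0.24 and 0.08 under PT. Of negative differences from MED-CTL without a call, MRPS7 had −0.51 ± 0.37 under PT, and MRPL15 had −0.37 ± 0.13 and MRPS18B −0.33 ± 0.11 under PT-G. Under p31-43 the most negative were MRPS7 with −0.23 ± 0.37, MRPS25 with −0.14 ± 0.15 and MRPL50 with −0.12 ± 0.10. MRPL42P5 differed from MED-CTL by 0.18 ± 0.08 under PT-G, near background.

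Against MED-CTL few MRP genes had groups that did not overlap. MRPS31 and MRPL46 did not overlap between PT-G and MED-CTL (2 of 77, beside 4.08% of all genes). MRPS31 and MRPL14 did not between PT and MED-CTL (2 of 77, beside 5.3%). MRPL14, a large subunit protein with a bacterial counterpart, was at 15.13 to 15.51 under MED-CTL and at 15.52 to 15.81 under PT, so the groups nearly touched. Between p31-43 and MED-CTL it was MRPL11, of the stalk base, and MRPL37 (2 of 77, beside 1.5%). MRPL11 was at 12.95 to 13.08 under MED-CTL and 13.11 to 13.25 under p31-43, a difference of 0.15 that was not called. Against p31-43 there were more, and all were lower under the digest. For PT-G they were MRPL9, MRPL27, MRPL35, MRPL37, MRPS18B and MRPS31 (6 of 77, beside 6.02% of all genes in either direction and 2.85% lower). For PT they were MRPL9, MRPL11, MRPL15, MRPL27, MRPL35, MRPS10, MRPS18B and MRPS31 (8 of 77, beside 6.1% in either direction and 3.3% lower).

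The median of the family differed little between conditions. The median log2 difference from MED-CTL was 0.12 for p31-43, 0.06 for PT and −0.02 for PT-G, beside −0.01 in each comparison for all genes by their brightest probe. For p31-43, 55 of 77 genes had a positive difference, beside 48% of all genes. The median was positive in each run, from 0.07 to 0.18, highest in run 4, where p31-43 lay on slide 5 and MED-CTL on slide 4. For PT-G it was positive in 1 run, 0 in another and negative in the other two, and for PT negative in runs 1 and 2 and positive in runs 3 and 4. With median scaling in place of quantiles the PT-G median turned to 0.06, so no direction is given for it. Between PT-G and PT the median was −0.09, with 19 of 77 positive, beside 52.2% of all genes. The run values of this median ran from −0.29 in run 3, where PT lay on another slide, to 0.08. Without slide 3 it was −0.00241, and the median for PT against MED-CTL was 0.01. The most negative difference in any of the 6 comparisons, −0.59 for MRPL54 between PT-G and p31-43, was not called (limma, adjusted p = 0.792). The 95% interval of the difference between PT-G and PT lay within 0.5 of 0 for 44 of 77 genes and within 1 for 74.

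The closest other families gave medians of the same order. The 84 genes of cytosolic ribosomal proteins had 0 calls in any of the 6 comparisons and medians of 0.09 for p31-43, 0.11 for PT and 0.07 for PT-G against MED-CTL. At an unadjusted p under 0.05 in limma there were 5, 6 and 3 of them, beside 2.27%, 9.28% and 8.19% of all genes. The 82 genes of the respiratory chain and ATP synthase had 1 call, higher, in each of these comparisons and medians of 0.17, 0.16 and 0.03. In the same order 0.413%, 3.85% and 3.67% of all genes were called. No difference between the families was tested.

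Other genes of mitochondrial gene expression had calls under the digests as well. Of 15 translation factors, 1 rose and 1 fell under PT-G and 3 fell under PT. Of 20 assembly factors of the ribosome, 1 fell under each digest. Of 14 regulators of mitochondrial gene expression, 1 rose and 1 fell under PT-G and 2 fell under PT. The called shares were 13.3%, 5% and 14.3% under PT-G, beside 3.67% of all genes, and 20%, 5% and 14.3% under PT, beside 3.85%. They rest on 1 to 3 genes each, and no difference from the background was tested. None of these genes was called under p31-43 against MED-CTL, nor was any of 6 proteins of the mitochondrial ribosome with other names, such as DAP3, in any comparison with MED-CTL. At an unadjusted p under 0.05 in limma, p31-43 had 1 of all these genes, beside 2.27% of all genes on the array.

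TACO1, the activator of COX1 translation, fell by 0.45 on the log2 scale under both PT-G and PT (limma, adjusted p = 0.0286 and 0.0341), and in each run the digests lay below medium by −0.38 to −0.59. TEFM, the elongation factor of the mitochondrial RNA polymerase, fell by 0.50 under both (limma, adjusted p = 0.0460 and 0.0528). MRM1, which methylates mitochondrial ribosomal RNA, fell by 0.48 and 0.46 (limma, adjusted p = 0.0901 and 0.109). GFM2, which helps to recycle the ribosome, and MTIF2, an initiation factor, had −0.43 and −0.57 under PT and were called there. GABPA, which binds the ETS core, was called under PT with −0.48 (limma, adjusted p = 0.205) and not under PT-G with −0.20. MTRF1, of the release factor family, rose by 0.43 under PT-G (limma, adjusted p = 0.138). MYC, a growth regulator known to act on genes of ribosome synthesis, rose by 1.07 under PT-G (limma, adjusted p = 0.0963) and was at 0.71 under PT, not called.

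Runs 3 and 4 were compared with runs 1 and 2 with the condition in the model, a comparison chosen after the data had been seen. The fit took the 16 arrays as independent, so its p-values do not measure the spread between the few runs of each period. An adjusted p under 0.05 was reached by 9 of 77 MRP genes, beside 25% of all genes. MRPL1 (0.42) and MRPL11 (0.16) were higher in the later runs. Lower were MRPL36 (−0.46), MRPS6 (−0.39), MRPL22 (−0.36), MRPS34 (−0.24), MRPL38 (−0.22), MRPL24 (−0.17) and MRPL49 (−0.15). MRPS6, a small subunit protein with a bacterial counterpart, lay between 15.58 and 15.96 on the 8 earlier arrays and between 15.19 and 15.46 on the 8 later ones, without overlap (limma, adjusted p = 4.08e-04). The difference was in the same direction in all 4 conditions, from −0.27 under PT to −0.48 under p31-43. MRPL36 and MRPS34 also stood apart on slide 3, which lies in the later period.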

How the data were processed

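Total RNA of Caco-2 cells was measured on 16 one-colour Agilent arrays, with 4 arrays for each of the 4 conditions. The authors' image analysis (Feature Extraction 9.5.3.1) gave each spot's median and mean intensity on a linear scale, with local background and marks for outliers, and a processed intensity that was background-subtracted. A table of log2 values was deposited as well, within 5e-09 of the log2 median intensity normalised with the quantiles method over all spots. The genome build of the probes is not given in the sources used here.

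From the median intensity, 1639 control spots of 45015 were left out, log2 values were normalised with the quantiles method without background correction, 1774 marked spots were dropped and spots of a probe averaged. The 40982 probes with 3 or more arrays per group were tested in limma 3.58.1 (R 4.3.3), in 1 model of the 4 conditions (12 residual and 1.88 prior degrees of freedom). The threshold was a nominal p under 0.01, with Benjamini-Hochberg values beside it. Each MRP gene was its brightest probe by the mean deposited log2 value. Of the members' values, 3 were missing because the spots were marked, 2 of them of MRPL12. RefSeq accessions matched 76 of 77 genes. Precision is limited by the number of arrays. The p-values without a block rest on the spread between arrays of a condition, which includes differences between runs and slides. The model was tested on simulated data.

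The members and all lists were chosen with earlier results of these data known. Genes named are those with a nominal p under 0.01 in any comparison, the 3 of largest positive and negative difference in each comparison with MED-CTL, those whose probes differ in direction or are not well above background, and up to 8 called genes of the related lists. Members that stood apart on slide 3, did not overlap between groups, or differed between periods were named after their values were seen. PTCD3, MTRFR, GTPBP10 and MPV17L2 were not found on the array under these names or listed aliases. Same-numbered arrays deviated together (r between 0.395 and 0.858 over probes for PT-G with MED-CTL, from 0.263 to 0.708 for p31-43 with MED-CTL, 0.574 to 0.837 for PT-G with p31-43, 0.135 to 0.602 for PT with p31-43), but not in every pair for PT with MED-CTL (from −0.0176) and PT-G with PT (from 0.0370). Alternatives were median scaling, the 75th percentile of the processed signal as the scale, background correction by normexp (offset 50), the mean in place of the median foreground, a test on the deposited table, dim probes left out, marked spots kept, blocks for the replicate number, run or slide, array weights (statmod 1.5.0), a fit of 2 groups only, the mean of a gene's probes, and leaving out each array. The fit without slide 3 and the comparison of periods were added later.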

Additional observations from a re-analysis of the deposited data

Results flagged for a closer look

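Within 62 groups of 4 arrays, for the named genes and for the median of the family, 3 had an array far from the others, where chance gives about 1 in 20 groups. MED-CTL replicate 4 of MRPL35 lay at 12.78 against 13.32 to 13.43, a gap of 0.838 of the range of the group. PT-G replicate 3 of MRPS10 lay at 13.20 against 12.85 to 12.90, a gap of 0.846 of the range. PT-G replicate 3 of MRPL34 lay at 13.31 against 14.50 to 14.59, a gap of 0.934 of the range. Both PT-G replicate 3 values are from slide 3.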

How the results depend on the processing

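Of the values for named genes under alternatives, 722 kept their direction and their side of the threshold. Of the rest, 100 lost and 17 gained the call and 1 changed sign, MRPS7 between p31-43 and MED-CTL, at 0.11 without MED-CTL replicate 3 in place of −0.23, with −0.46 without p31-43 replicate 3 at the other end. With the processed signal scaled to its 75th percentile no MRP gene was called in any comparison (0 for PT-G and 0 for PT against MED-CTL, 0 for both against p31-43), and the median was 0.0494 for p31-43 against MED-CTL and −0.0365 for PT-G against p31-43. Of all genes 2.67% and 2.90% were still called for PT-G and PT against MED-CTL, and 3.06% and 2.52% against p31-43. With median scaling the counts were 0 for PT-G and 0 for PT against MED-CTL, and 2 for PT-G and 1 for PT against p31-43. In the same order the shares of all genes were 2.69%, 2.86%, 3.01% and 2.55%. The MRP median for p31-43 against MED-CTL was 0.18. With median scaling the median of all probes for PT against MED-CTL was −0.11, and the MRP median relative to it was 0.22. For PT-G against p31-43 the median of all probes was 0.11 and the relative MRP median −0.20. With the 75th percentile the median of all probes for PT against p31-43 was 0.11, with an MRP median of 0.03 and a relative one of −0.08. Leaving out dim probes gave 2 calls for PT-G against MED-CTL and 3 for PT against p31-43, beside 4.33% and 3.91% of all genes. With the replicate number as a block there were 5 calls for PT-G, 6 for PT and 1 for p31-43 against MED-CTL, 0 between PT-G and PT, and 9 for PT-G and 7 for PT against p31-43. Of all genes 7.81%, 8.56% and 1.09% were then called against MED-CTL, 0.213% between PT-G and PT, and 8.12% for PT-G and 7.10% for PT against p31-43. With the run as a block there were 7, 7 and 1 against MED-CTL, and 9 for PT-G and 7 for PT against p31-43. With the slide as a block the counts were 11 for PT-G, 8 for PT and 6 for p31-43 against MED-CTL, and 14 and 12 for PT-G and PT against p31-43, beside 12.4%, 10.8% and 3.80% of all genes against MED-CTL and 10.98% and 10.77% against p31-43. Array weights gave 8, 8 and 3 against MED-CTL, and 10 and 9 against p31-43, beside 7.58%, 6.66%, 1.44%, 7.38% and 5.95% of all genes. A fit of 2 groups gave 1 call for PT, and the mean of all probes 1 for PT-G and 1 for PT. In the fit of 2 groups 2.92% of all genes were called for PT against MED-CTL and 3.89% against p31-43. With the mean of all probes the shares were 3.66% for PT-G and 3.85% for PT against MED-CTL. Without slide 3 there were 4 calls for PT-G, 4 for PT and 1 for p31-43 against MED-CTL, and 6 for each digest against p31-43. In the same order 4.431%, 4.754% and 0.668% of all genes were then called against MED-CTL. Against p31-43 the shares of all genes were 4.402% for PT-G and 4.673% for PT. Leaving out 1 array gave 2 to 8 calls for PT-G against MED-CTL, lowest without MED-CTL replicate 1 and highest without MED-CTL replicate 4. The share of all genes was 3.37% and 4.36% in these fits. For PT it gave 1 to 7, lowest without PT replicate 2 and highest without MED-CTL replicate 4, beside 2.89% and 4.89%. For p31-43 it gave 0 to 1, beside shares from 0.229% to 0.814%. It gave 0 between PT-G and PT, 3 to 7 for PT-G and 1 to 5 for PT against p31-43, lowest without PT replicate 2. The share of all genes for PT was 2.58% without that array, and for PT-G it ran from 3.02% to 4.47%. Between PT-G and PT the share ran from 0.0710% to 0.226%. The medians ranged from −0.10 to 0.04 for PT-G, from 0.01 to 0.08 for PT and from 0.0383 to 0.19 for p31-43 against MED-CTL. They ranged from −0.11 to −0.00241 between PT-G and PT, from −0.19 to −0.0645 for PT-G and from −0.11 to −0.01 for PT against p31-43. The cause of these changes was not tested. With 4 arrays per condition, differences of the size of the spread were not resolved.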
